A study of Mus musculus with 2 samples.

Results

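Levels of 8 genes of inhibitory receptors and their ligands, Lag3, Havcr2, Btla, Vsir, Lgals9, Cd200, Cd200r1 and Lilrb4a, were compared between clusters of splenic dendritic cells (DCs) and between wild-type and Batf3-/- mice. They were taken as a list by name out of 17751 genes, and all 8 are in the deposited RNA tables. Live CD11c+ MHCII+ cells had been sorted, after depletion of T and B cells, from spleens of female C57BL/6 mice (WT) and of mice lacking the transcription factor Batf3 (Batf3-/-), all 8 weeks old. Mice of a genotype were pooled into 1 library, so there is no replicate, no test was made, and library and genotype cannot be told apart. Cells keep the 20 clusters of the study (C0 to C19) and their names. A level is the number of unique molecular identifiers (UMIs) of a gene in the cells of a cluster and library, per 1000000 UMIs of those cells (CPM), followed by an exact Poisson 95% interval. All intervals here cover counting error only.

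Inhibitory receptors damp the cell that carries them, often through phosphatases or adaptors recruited to tyrosine motifs in their tails, and are best known from T cells. DCs carry several of them, together with ligands that engage such receptors on lymphocytes. Among conventional DCs (cDCs) of the spleen, cDC1 depend on Batf3 and excel at presenting antigen from dead cells to CD8 T cells, while Sirpa+ cDC2 are more diverse. Mature cDCs express Ccr7 and move to the T cell zone.

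The WT library holds 12224 cells and 122530055 UMIs, and the Batf3-/- library 12119 cells and 114517073 UMIs. Batf3 itself was at 206 CPM in WT and 2.49 CPM in Batf3-/-. The Batf3-/- library has 31 cells in C4 (immature cDC1) and 31 in C12 (mature cDC1), and its 1 cell in C17 and 2 cells in C18 were not used. In all, 56 cell barcodes occur in both libraries. C19, named stem cells by the study, held the globin gene Hbb-bs at 118780.0 CPM in WT and 133635 CPM in Batf3-/-, which goes against that name, and it is called C19 here.

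Lag3, a relative of Cd4 that binds MHC class II, stood out in 2 clusters. In plasmacytoid DCs (pDCs, C14) it was at 245 CPM (221 to 271) in WT and 269 CPM (238 to 302) in Batf3-/-. In the Sox4+ cDCs (C3) it was at 225 CPM (213 to 237) and 227 CPM (219 to 234). The intervals of C14 and C3 overlapped in WT and lay apart in Batf3-/-. Next in order came C5, a cycling cDC2a cluster, with 32.0 CPM in WT, and C13, which holds NK cells, ILCs and T cells, with 57.3 CPM in Batf3-/-. Cycling cDC1 (C6, whose Batf3-/- cells the study calls cDC1-like) were at 5.50 and 3.49 CPM. When each cell was thinned to 1000 UMIs, 17.5% (14.7 to 20.5) of WT and 18.4% (16.5 to 20.4) of Batf3-/- C3 cells held a Lag3 UMI, against 0.878% and 0.413% of C6 cells. Without thinning the C3 shares were 66.9% and 66.8%, at medians of 8589.5 and 9444 UMIs per cell. Lag3 lies at chr6:124904361-124911705 (GRCm38, minus strand), beside Cd4.

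Lag3 varied within C3. In thinned cells with a UMI of the pDC gene Siglech it was at 279 CPM (168 to 436) in WT (68 cells) and 573 CPM (450.3 to 718) in Batf3-/- (131 cells). In C3 cells without one it was at 195 CPM (162 to 232) and 199 CPM (177 to 224). The intervals lay apart in Batf3-/- and overlapped in WT. The same held when C3 was divided by a UMI of the chemokine receptor Ccr2. Lag3 was then at 460 CPM (365 to 572) with and 201 CPM (178 to 227) without one in Batf3-/-. In WT it was at 274 CPM (167 to 423) and 195 CPM (162 to 233). In C13, cells labelled NK or ILC held 44.8 CPM (28.4 to 67.2) of Lag3 in WT and 79.0 CPM (55.7 to 109) in Batf3-/-. Cells labelled T or NKT held 14.8 CPM (5.44 to 32.3) and 22.4 CPM (4.62 to 65.4), from 6 and 3 UMIs. C13 cells labelled DC held 24.8 CPM (13.6 to 41.7) and 53.9 CPM (34.5 to 80.2). Both overlapped the cells labelled NK or ILC in each library.

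Havcr2 encodes TIM-3, which binds phosphatidylserine, galectin-9 and HMGB1. In WT it was highest in C17, cDC1 rich in mitochondrial transcripts, with 313 CPM (245 to 393) from 90 cells, and in immature cDC1 (C4) with 212 CPM (207 to 217). It was also read in cDC2a: 189 CPM in mature C8 and 132 CPM in immature C0. C9, which the study lists with cDC2a but annotates as mixed cDC2 rich in mitochondrial transcripts, was at 171 CPM, at a median of 1467 UMIs per cell. Mature cDC1 (C12) were at 20.9 CPM (16.0 to 26.8), lower than any of these. In Batf3-/- C4 and C8 led with 129.6 CPM (99.1 to 167) and 124 CPM (114 to 135), which overlapped. Of thinned WT cells, 19.5% (17.9 to 21.3) of C4, 11.9% (10.8 to 13.1) of C0 and 1.54% (0.567 to 3.32) of C12 held a Havcr2 UMI. Unthinned these were 90.1%, 53.8% and 9.90%, at medians of 15398.5, 6648 and 6887.5 UMIs.

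Btla, whose ligand is the TNF receptor family member HVEM (Tnfrsf14), led in the cDC1 clusters other than mature C12. In WT it was at 227 CPM (170.0 to 297) in C17, 169 CPM (165 to 173) in C4, 125 CPM (119.7 to 131) in C6 and 107 CPM (79.9 to 139.6) in C18, cDC1 rich in ribosomal transcripts. The intervals of C17 and C4 overlapped, as did those of C6 and C18. C3 followed with 64.6 CPM (58.4 to 71.3), apart from its neighbours in the order, and C0 and C12 were both at 25.3 CPM. In Batf3-/- C4 and C6 led again with 76.5 CPM (53.6 to 106) and 66.8 CPM (62.5 to 71.4). After thinning, 16.9% (15.3 to 18.5) of WT C4 and 2.61% (2.09 to 3.23) of WT C0 cells held a Btla UMI, against 88.0% and 15.4% unthinned.

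Promoter windows of RefSeq (GRCm38.p6, from 250 bases before to 50 after the start) matched 5 of the 8 genes, Havcr2, Btla, Vsir, Lgals9 and Cd200. They were searched on both strands for the AP-1 motif TGANTCA, which BATF proteins bind with JUN partners and which 7.81% of all 32851 windows held. Havcr2 (chr11:46454681-46454980, plus strand) and Btla (chr16:45224087-45224386, plus strand) are shown because they were high together in immature cDC1. Capitals mark the match in Havcr2, whose first base lies 200 bases before the start. The windows of Btla, Vsir, Lgals9 and Cd200 did not hold these letters.
Havcr2: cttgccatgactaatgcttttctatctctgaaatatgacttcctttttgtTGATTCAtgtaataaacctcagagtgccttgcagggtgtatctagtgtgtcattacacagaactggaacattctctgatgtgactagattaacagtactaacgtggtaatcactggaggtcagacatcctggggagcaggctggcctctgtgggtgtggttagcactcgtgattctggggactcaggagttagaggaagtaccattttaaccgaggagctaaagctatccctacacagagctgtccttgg
Btla: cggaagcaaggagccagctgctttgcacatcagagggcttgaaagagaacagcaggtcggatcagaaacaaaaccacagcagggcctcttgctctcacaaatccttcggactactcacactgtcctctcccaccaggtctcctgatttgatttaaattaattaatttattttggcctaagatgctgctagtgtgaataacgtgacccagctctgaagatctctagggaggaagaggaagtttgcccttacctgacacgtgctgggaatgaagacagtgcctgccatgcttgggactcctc

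Vsir encodes VISTA, a B7-like molecule of myeloid cells. It was highest in monocytes (C15), with 171 CPM (148 to 197) in WT and 169.7 CPM (133 to 213) in Batf3-/-. The cDC2b clusters followed, mature C11 with 117 CPM (101 to 134) and immature C2 with 112 CPM (105 to 119) in WT. These overlapped each other and lay below C15, in Batf3-/- as well. Within C13, cells labelled T or NKT held 116 CPM (85.3 to 154) in WT and 134 CPM (79.6 to 212) in Batf3-/-, which overlapped C15. C13 cells labelled NK or ILC held 52.6 and 17.1 CPM. Within C2, cells labelled monocytes held more than cells labelled DC, 134 CPM (121 to 147) against 97.7 CPM (89.3 to 107) in WT and 114 CPM (104 to 124) against 82.2 CPM (76.9 to 87.8) in Batf3-/-. Vsir (chr10:60346851-60372684, plus strand) lies inside Cdh23 on the opposite strand.

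Lilrb4a, an inhibitory receptor of myeloid cells, had few UMIs, 637 in WT and 794 in Batf3-/-. In WT its leading clusters were those of Vsir, C15 with 31.4 CPM (22.0 to 43.5), C11 with 22.9 CPM (16.4 to 31.1) and C2 with 18.9 CPM (16.1 to 22.1), all overlapping. The neighbour and close relative of Lilrb4a, listed as Lilr4b, can share reads with it, so both are uncertain. Lilr4b was at 31.4, 31.8 and 16.3 CPM in C15, C11 and C2 in WT. In C12 Lilr4b was at 21.9 CPM in WT and 47.0 CPM in Batf3-/-.

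Cd200, a membrane ligand, and Cd200r1, its inhibitory receptor on myeloid cells, had different leading clusters, and pDCs were among the next for each. Cd200 led in mature cDC1 (C12) with 99.1 CPM (88.1 to 111) in WT and 86.8 CPM (55.6 to 129) in Batf3-/-, and in Il4i1+ mature cDC2 (C1) with 91.7 CPM (83.5 to 101) and 107 CPM (102 to 113). pDCs (C14) followed with 64.7 CPM (52.7 to 78.6) and 71.9 CPM (56.6 to 90.2), the latter overlapping C12. Immature C0 and C2 held 2.11 and 2.90 CPM in WT. Cd200r1 led in C3 with 88.6 CPM (81.3 to 96.4) in WT and 95.4 CPM (90.5 to 100.4) in Batf3-/-, apart from pDCs, the next cluster, with 25.6 CPM (18.3 to 34.9) and 24 CPM (15.5 to 35.4). C1 and C12 were at 5.83 and 3.37 CPM of Cd200r1 in WT. Thinned C3 cells with a UMI of the chemokine receptor Ccr2 held 164 CPM (84.9 to 287) of Cd200r1 in WT and 182 CPM (124 to 257) in Batf3-/-, and those without 63.4 CPM (45.3 to 86.3) and 82.1 CPM (67.6 to 98.7).

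Lgals9 encodes galectin-9. It was highest in C19, the cluster rich in Hbb-bs, with 96.1 CPM (56.0 to 154) in WT and 73.4 CPM (43.5 to 116) in Batf3-/- from 29 and 36 cells. In Batf3-/- this interval overlapped those of C14 (35.5 CPM, 25.0 to 48.9), C15 and C13. C13, C10, C11, C15 and C14 lay between 25.6 and 32.3 CPM in WT, each overlapping the next. The mature clusters C1 and C12, which led in Cd200, were at 2.01 and 4.04 CPM. C11 held summed erythroid markers of 2810.2 CPM in WT and 136 CPM in Batf3-/-, beside 29.0 and 16.8 CPM of Lgals9, and their part in that was not tested.

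**Figure D1:**
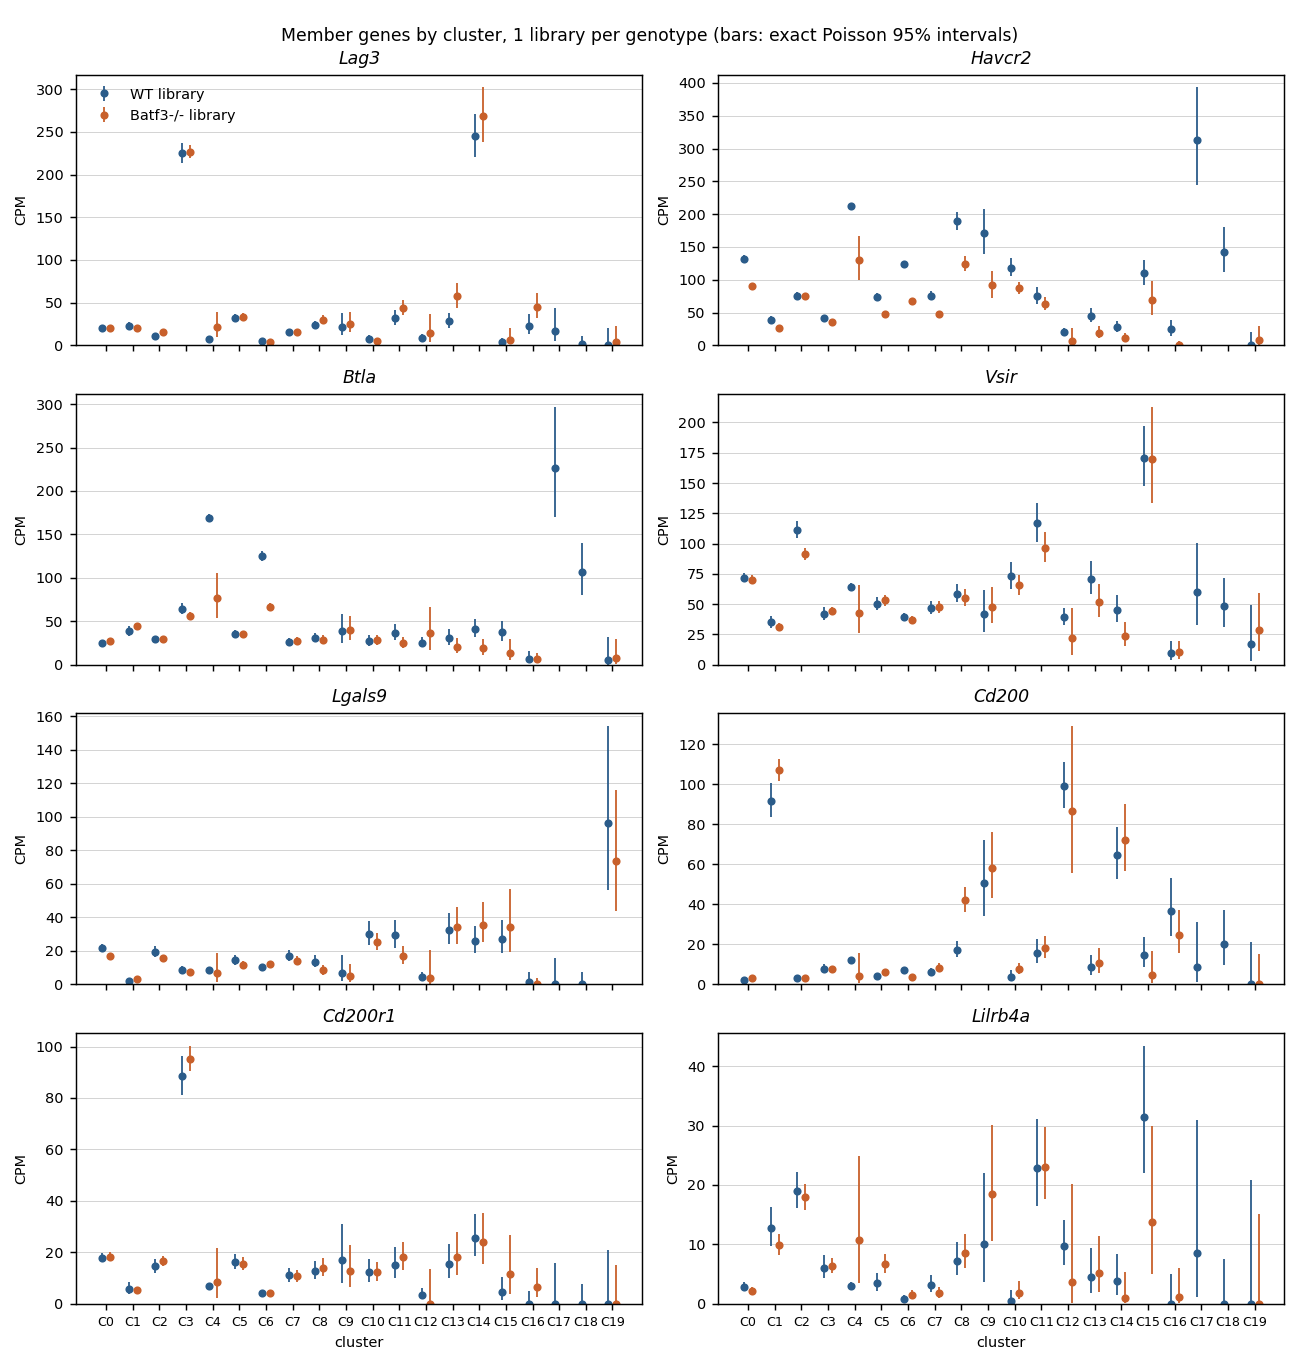
Level of each of the 8 genes in CPM (vertical axes) by cluster and library, with exact Poisson 95% intervals as bars. Lag3 stands out in C3 and C14, Btla in C4, C6, C17 and C18, Vsir in C15, Cd200 in C1 and C12 and Cd200r1 in C3.

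Both libraries gave similar orders of clusters. Over the 17 clusters with at least 30 cells in each, Pearson's r of log2(CPM + 1) between libraries ran from 0.752 for Cd200r1 to 0.947 for Lgals9, as a description of points that share libraries and clustering. Partners were seldom read in the same thinned cell. Havcr2 and Lgals9 met in 25 WT and 11 Batf3-/- cells, where the products of their shares gave 20.8 and 9.35. Cd200 and Cd200r1 met in 2 cells of each library, with products of 2.11 and 2.59. Counts so sparse show neither an excess nor a lack.

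The 3 genes most like each member were found by Pearson's r of log2(CPM + 1) over 17 clusters of at least 100 cells, libraries summed, among 5324 genes. The values describe clusters that share libraries and depth. For Lag3 they were Pdzd4 (0.889), Kdr (0.881) and Tcf4 (0.851), all highest in pDCs. Havcr2 was most like Apobr (0.921), Mctp1 (0.901) and Gpr65 (0.886). Btla was most like Camk1d (0.810), Ptcd2 (0.795) and Kctd14 (0.752). For Vsir they were Susd3 (0.867), AB124611 (0.838) and Dusp6 (0.826), all highest in monocytes. Lgals9 was most like Gmfg (0.835), Tnfaip8l2 (0.824) and Cd53 (0.819). For Cd200 they were Gnb4 (0.942), Sh3bp4 (0.907) and Cacnb3 (0.904), all highest in C12. Cd200r1 was most like Gpr146 (0.856), Cd37 (0.819) and Klrd1 (0.815). For Lilrb4a they were Nr1h3 (0.823), Nfkbiz (0.784) and Sowahc (0.778).

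Mature and immature clusters of a lineage were then compared in each library. A gene was past the limit at a 2-fold difference of CPM, counting only genes whose CPM averaged 10 or more over both sides, from 20 UMIs or more in sum. Mature cDC1 held less Havcr2 and Btla and more Cd200 than immature cDC1. In WT, Havcr2 was at 20.9 CPM in C12 and 212 CPM in C4, a log2 ratio of -3.34 (-3.73 to -2.98). Btla was at 25.3 and 169 CPM (-2.74, -3.09 to -2.41). Cd200 was at 99.1 and 12.0 CPM (3.05, 2.83 to 3.27). Thus 3 of the 4 members that passed the filter were past 2-fold, where 36.6% of all genes were. Vsir, the other one, was at 39.4 and 64.6 CPM (-0.71, -0.99 to -0.44). In Batf3-/-, from 31 cells on each side, the same 3 were past it, where 43.8% of genes were: Havcr2 at 7.23 and 129.6 CPM, Btla at 36.2 and 76.5 CPM and Cd200 at 86.8 and 4.25 CPM. The Btla ratio there was within 2-fold with median-of-ratios scaling (-0.85) and turned to 0.58 in thinned cells. Markers of other cells also differed. In WT macrophage markers summed to 167 and 30.4 CPM in C12 and C4, erythroid markers to 13.1 and 113 CPM, monocyte markers to 52.6 and 329.9 CPM and Sox4+ cDC markers to 96.4 and 45.8 CPM. In Batf3-/- B cell markers summed to 188 and 74.4 CPM, cDC2 markers to 90.4 and 208 CPM, monocyte markers to 21.7 and 189 CPM and Sox4+ cDC markers to 249 and 42.5 CPM. The part of the cells these mark in the ratios was not tested.

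In cDC2a, Havcr2 was higher in mature C8 than in C0, within 2-fold. It was at 189 and 132 CPM in WT (0.52, 0.40 to 0.63) and 124 and 90.6 CPM in Batf3-/- (0.46, 0.32 to 0.60). None of the 6 members that passed was past 2-fold in WT, where 6.81% of genes were. Cd200, under the filter there, was at 17.1 CPM (13.4 to 21.6) in C8 and 2.11 CPM (1.54 to 2.81) in C0. In Batf3-/- 2 of 7 were past it, where 7.69% of genes were. Cd200 was at 42.0 and 3.11 CPM (3.76, 3.35 to 4.18) and Lgals9 at 8.22 and 17 CPM (-1.05, -1.59 to -0.54). The Lgals9 ratio was within 2-fold among G1 cells (-0.97), with median-of-ratios scaling (-0.93) and without marked doublets (-0.92). Lilrb4a, also under the filter, gave 1.37 (0.69 to 2.03) in WT and 1.98 (1.31 to 2.63) in Batf3-/- C8 over C0, and 1.70 (1.05 to 2.30) in WT C12 over C4. Monocyte markers summed to 211 and 34.8 CPM in C8 and C0 in WT and 317 and 47.2 CPM in Batf3-/-, and their part in these ratios was not tested.

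In cDC2b, Lag3 was higher in mature C11 than in C2. It was at 31.8 and 11.0 CPM in WT (1.54, 1.03 to 2.03) and 43.8 and 16.1 CPM in Batf3-/- (1.44, 1.11 to 1.77). In WT it was 1 of 7 members past 2-fold, where 3.83% of genes were. Cd200 was higher in C11 in each library, at 15.6 and 2.90 CPM in WT (2.43, 1.59 to 3.28), where its mean lay just under the filter, and 18.0 and 2.94 CPM in Batf3-/- (2.61, 1.99 to 3.24), where it passed, making 2 of 8 where 3.29% of genes were. Markers of other cells were also higher in C11. Summed macrophage markers were at 1338 CPM in C11 and 115 CPM in C2 in WT and at 1043 and 107 CPM in Batf3-/-. Erythroid markers were at 2810.2 and 5.07 CPM in WT and 136 and 10.2 CPM in Batf3-/-, monocyte markers at 6163 and 3329.9 CPM and 5494 and 2932 CPM, and mature DC markers at 559 and 256 CPM and 581 and 282 CPM. The part of the cells these mark in the Lag3 and Cd200 ratios was not tested.

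C8 was mixed in Ccr7, and the members were read in its parts, a division chosen after values had been seen. Cd200, Havcr2 and Btla are given. Thinned C8 cells with a Ccr7 UMI held Cd200 at 56.5 CPM (22.7 to 116) in WT and 162 CPM (108 to 234) in Batf3-/-, and those without at 2.46 CPM (0.0622 to 13.7) and 10.1 CPM (2.09 to 29.6). Havcr2 was at 64.5 CPM (27.9 to 127) with and 233 CPM (189 to 285) without Ccr7 in WT, which lay apart. In Batf3-/- it was at 86.7 CPM (48.5 to 143) and 149 CPM (108 to 199.6), which overlapped.

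**Figure D2:**
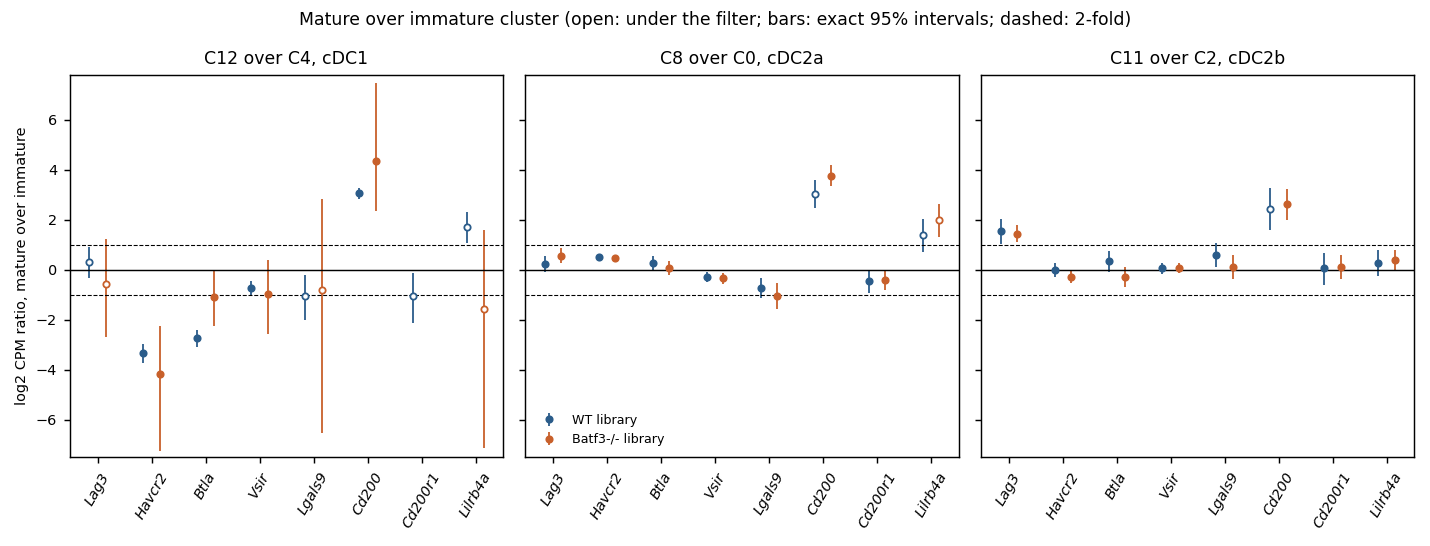
Log2 ratio of CPM, mature over immature cluster, for the 8 genes in cDC1 (C12 over C4), cDC2a (C8 over C0) and cDC2b (C11 over C2) in each library, with exact 95% intervals as bars. In WT, Havcr2 is at -3.34 in cDC1 and 0.52 in cDC2a.

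Other genes of these pathways were read from 2 lists. Of 23 partners and signalling genes, 13 passed the filter in WT C12 over C4, with 2 higher and 2 lower by 2-fold and a median log2 ratio of -0.20, against -0.21 over all genes tested. Dok1, an adaptor of Cd200r1, was at 293 CPM in C12 and 47.3 CPM in C4, and Selplg, a partner of VISTA, at 617 and 283 CPM. H2-Ab1, an MHC class II chain, was at 3537 and 11346 CPM and the phosphatase Inpp5d at 61.7 and 181 CPM. Of 24 other inhibitory receptors and ligands 14 passed, 6 higher and 2 lower, with a median of 0.66, where 36.6% of all genes were past 2-fold. That list also holds genes of costimulation, among them Icosl, Cd80 and Cd86. Pvr was at 160.1 and 7.40 CPM, Icosl at 297 and 25.0 CPM and Cd274 (PD-L1) at 94.0 and 10.8 CPM, while the Fc receptor Fcgr2b was at 3.71 and 49.9 CPM. In Batf3-/-, where 43.8% of genes were past 2-fold, 2 of 11 partners were higher and 4 lower, and 3 of 10 other inhibitory genes higher and 3 lower.

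In WT C8 over C0, 0 of 13 partners were past 2-fold, and of 17 other inhibitory genes 4 were higher and 1 lower, where 6.81% of all genes were past it. Pvr was at 58.1 and 3.25 CPM, the costimulator Cd86 at 575 and 97.3 CPM, Cd80 at 105 and 34.3 CPM and Fcgr2b at 22.4 and 8.43 CPM. In WT C11 over C2, 2 of 18 were higher, where 3.83% of all genes were past 2-fold, Pilra with 52.5 and 9.53 CPM and Siglece with 24 and 11.1 CPM, and 0 of 13 partners were past it. In Batf3-/- no partner was past 2-fold in C8 over C0 or C11 over C2. Of the other inhibitory genes 3 of 17 were higher and 2 lower in C8 (where 7.69% of genes were past 2-fold), and 1 of 17 higher in C11 (3.29%).

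Cycling clusters were compared with the resting cluster of their lineage, and of members that passed the filter Lag3 alone was past 2-fold, in cycling C10 over C0. It was at 7.32 and 20.3 CPM in WT (-1.47, -2.24 to -0.79) and 5.57 and 20.3 CPM in Batf3-/- (-1.87, -2.57 to -1.24), 1 of 6 members that passed in each, where 7.39% and 6.91% of genes were past it. Monocyte markers summed to 103 and 34.8 CPM in C10 and C0 in WT and 131 and 47.2 CPM in Batf3-/-, and their part in this was not tested. In cycling C5 Lag3 was instead at 32.0 CPM in WT (0.66, 0.42 to 0.89) and 33.7 CPM in Batf3-/- (0.73, 0.53 to 0.94). Sox4+ cDC markers summed to 247 and 148 CPM in C5 and C0 in WT and 318 and 149 CPM in Batf3-/-. Monocyte markers in C5 summed to 135 CPM in WT and 161 CPM in Batf3-/-. The part of either in the Lag3 ratio was not tested. Havcr2 in C5 was at 73.3 CPM in WT (-0.85, -0.99 to -0.71) and in C7 at 75.6 CPM (-0.81, -0.95 to -0.67). In WT C7 monocyte markers summed to 258 CPM. Macrophage markers summed to 59.6 CPM in C5, 53.1 CPM in C7 and 97.9 CPM in C0. The part of the cells these mark in the Havcr2 ratios was not tested. In WT C6 over C4 Havcr2 was at 124 and 212 CPM (-0.78, -0.85 to -0.70) and Btla at 125 and 169 CPM (-0.43, -0.51 to -0.36). Of members that passed the filter, none was past 2-fold in C5 (where 6.16% of genes in WT and 5.44% in Batf3-/- were), C7 (14.5% and 14.6%) or C6 (8.56% in WT). Under the filter, Cd200 in C7 over C0 was at 6.07 and 2.11 CPM in WT (1.53, 0.88 to 2.17) and 8.23 and 3.11 CPM in Batf3-/- (1.40, 0.90 to 1.91), and in Batf3-/- C10 over C0 it gave 1.26 (0.57 to 1.91). Lilrb4a, also under it, gave 1.63 (1.08 to 2.19) in Batf3-/- C5, -2.78 (-8.11 to -0.25) in WT C10 and -1.86 (-2.82 to -1.02) in WT C6 over C4. Of 13 partners that passed in WT C7, 1 was higher by 2-fold (14.5% of all genes were past it). It was Hmgb1, a chromatin protein and ligand of TIM-3, at 1517 CPM in C7 and 305 CPM in C0. In WT C10, 2 of 13 partners were higher (7.39%), and in WT C6 over C4, 1 was higher and 1 lower (8.56%). Of 16 other inhibitory genes in C7, 1 was higher and 2 lower in WT, and 3 lower in Batf3-/- (14.6%).

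Between the genotypes, Havcr2 was lower in Batf3-/- in 16 of 17 clusters with at least 30 cells in each library, with an interval below 0 in 13 and a median log2 ratio of -0.66. All ratios between genotypes compare the same pair of libraries, so clusters are not repeats of each other. The share of all genes lower in as many clusters was not computed. In C0, from 3176 WT and 2961 Batf3-/- cells, Havcr2 was at 132 CPM (127 to 137) and 90.6 CPM (86.7 to 94.7), a log2 ratio of -0.54 (-0.63 to -0.46). In C8 it was at 189 and 124 CPM (-0.61, -0.77 to -0.45), and in C6 at 124 and 67.6 CPM (-0.87, -0.99 to -0.76). C2 was the exception, at 75.7 CPM in each library (0.00, -0.14 to 0.14). In the 6 cDC2a clusters C0, C5, C7, C8, C9 (annotated as mixed) and C10 it was lower in 6, each with an interval below 0. Summed mature DC markers were higher in Batf3-/- in each of them, at 154 and 211 CPM in C0, 204 and 357 CPM in C5 and 998 and 1615 CPM in C8, and in WT C8 Havcr2 was lower in cells with than in cells without a Ccr7 UMI, as given above. In Batf3-/- C8 the intervals of these parts overlapped, and C8 as a whole held more Havcr2 than immature C0 in each library. The part of maturity in the difference between genotypes was not tested. Pooled, the 6 cDC2a clusters held Havcr2 at 119 CPM in WT and 77.1 CPM in Batf3-/- (-0.63, -0.69 to -0.57). There 35 of 7418 genes had a ratio as low or lower, and 0.243% of genes were past 2-fold.

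The WT library has more cDC1, whose free RNA could enter other cells, so the cDC1 genes Naaa, Clec9a and Xcr1 were read in the same clusters. In C0, Naaa was at 3.80% of its WT C4 level in WT and 2.12% in Batf3-/-. Clec9a in C0 was at 1.88% and 0.648% of its own WT C4 level, and Xcr1 at 0.891% and 0.682%. In C9 Naaa was at 4.59% and 1.09%, Clec9a at 10.9% and 3.92% and Xcr1 at 3.30% and 0.682%, WT first. In C2 Naaa was at 7.02% and 4.37%, Clec9a at 11.7% and 5.81% and Xcr1 at 1.35% and 1.15%. In C15 Naaa was at 30.9% and 6.27%, Clec9a at 28.8% and 2.83% and Xcr1 at 25.2% and 0.450%. How much free RNA adds to Havcr2 in these clusters was not tested. The cDC1 markers Xcr1, Clec9a, Cadm1 and Tlr3 summed to 107 and 11.3 CPM in C13, 204 and 157 CPM in C14 and 314 and 16.1 CPM in C15, in WT and Batf3-/-. Their part in the differences of those clusters was not tested either.

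Over 17 clusters Btla was lower in Batf3-/- in 10 and higher in 7, with an interval below 0 in 6 and above 0 in none. The fall was not confined to cDC1. In C3 Btla was at 64.6 CPM in WT and 56.4 CPM in Batf3-/-, and in C11 at 36.9 and 24.6 CPM. C14 and C15 are given below. Among the cDC1 clusters, Btla was lower in Batf3-/- in C6 and C4. In mature cDC1 (C12), with 31 Batf3-/- cells as in C4, it was not lower. There it was at 25.3 CPM (19.9 to 31.7) in WT and 36.2 CPM (17.3 to 66.5) in Batf3-/-, which overlapped. In C6 it was at 125 CPM (119.7 to 131) in WT and 66.8 CPM (62.5 to 71.4) in Batf3-/- (-0.91, -1.02 to -0.79), and in C4 at 169 and 76.5 CPM (-1.14, -1.66 to -0.67). The summed cDC1 markers were at 843 and 173 CPM in C6 and 1238 and 667 CPM in C4. The cDC2 markers moved the other way, from 34.3 to 199.6 CPM in C6 and from 44.0 to 208 CPM in C4. The part of either in this was not tested. Over the pooled cDC2a clusters Btla was at 28.1 and 29.5 CPM (0.07, -0.04 to 0.18). Lag3 in C3 gave a log2 ratio of 0.01 (-0.08 to 0.10) and in pDCs 0.13 (-0.09 to 0.36). Over 17 clusters Lag3 was higher in Batf3-/- in 12, with an interval above 0 in 4 and below 0 in 1. In C2 it was at 11.0 CPM (8.84 to 13.5) in WT and 16.1 CPM (14.2 to 18.3) in Batf3-/-. Cd200r1 in C3 gave 0.11 (-0.04 to 0.25), and Vsir -0.05 (-0.12 to 0.03) in pooled cDC2a and -0.29 (-0.41 to -0.16) in C2. Lgals9 was lower in 6 of 6 cDC2a clusters, with an interval below 0 in 2. Pooled, it was at 19.3 CPM in WT and 14.9 CPM in Batf3-/- (-0.37, -0.52 to -0.23).

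Of 136 ratios of a member in a cluster, 96 passed the filter and 10 were past 2-fold, 3 higher and 7 lower in Batf3-/-. In C8, where 0.734% of genes were past it, Cd200 was at 17.1 CPM (13.4 to 21.6) in WT and 42.0 CPM (36.1 to 48.6) in Batf3-/- (1.29, 0.89 to 1.71). Ccr7 was read in 23.4% of thinned WT and 36.9% of Batf3-/- C8 cells, and its part in this was not tested. In C4 (8.42% of genes) Lag3 was at 6.99 and 21.2 CPM, from 239 and 10 UMIs, and Btla was past 2-fold as given above. The cDC2 markers that moved with them are given there too. B cell markers summed to 28.5 and 74.4 CPM, macrophage markers to 30.4 and 82.9 CPM, erythroid markers to 113 and 0 CPM and monocyte markers to 329.9 and 189 CPM. Their part in the Lag3 difference was not tested. In C12 (13.6%) Havcr2 was at 20.9 and 7.23 CPM, from 62 and 2 UMIs. In C12 the cDC1 markers summed to 158 and 18.1 CPM, B cell markers to 49.2 and 188 CPM, Sox4+ cDC markers to 96.4 and 249 CPM and monocyte markers to 52.6 and 21.7 CPM, WT first. Their part in the Havcr2 difference was not tested.

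In C13 (3.18% of genes) Lag3 was at 28.4 CPM in WT and 57.3 CPM in Batf3-/- (1.01, 0.44 to 1.60), and Havcr2 at 45.2 and 19.1 CPM (-1.24, -2.01 to -0.53). Neither is firm. The Lag3 ratio was within 2-fold with median-of-ratios scaling (0.98). Without the doublets marked in 6 runs of Scrublet, Lag3 ran from 0.87 to 1.01 and Havcr2 from -1.24 to 0.32, so that its direction turned with the run. C13 cells labelled DC held 103 and 38.2 CPM of it. In C14 (3.47%) Havcr2 was at 28.2 and 10.6 CPM, a ratio of -1.42 (-2.52 to -0.44) that was within 2-fold without marked doublets (-0.93) and turned to 0.61 in thinned cells, and Btla at 41.7 and 19.2 CPM. Mature DC markers in C14 summed to 288 and 111 CPM. In C15 (8.04%) Btla was at 37.5 and 13.8 CPM, a ratio within 2-fold among G1 cells (-0.94) and by the mean of per-cell CPM (-0.75). Lilrb4a there was at 31.4 and 13.8 CPM, a ratio that was within 2-fold without marked doublets (-0.95) and turned to 0.89 in thinned cells. In C15 mature DC markers summed to 248 and 566 CPM, monocyte markers to 12817 and 19134 CPM and Sox4+ cDC markers to 87.2 and 174 CPM. In C13 mature DC markers summed to 171 and 327 CPM and cDC2 markers to 186 and 332 CPM. The part of these markers in the differences of C13, C14 and C15 was not tested. Of members that passed the filter, none was past 2-fold in the other 11 clusters. Under it, Havcr2 in C16 had 18 UMIs in WT and 1 in Batf3-/- (-4.50, -9.88 to -1.84), and Cd200 in C6 was at 7.10 and 3.42 CPM (-1.05, -1.58 to -0.55). In C10, also under it, Cd200 gave 1.02 (-0.10 to 2.29) and Lilrb4a 2.19 (-0.77 to 7.68). In these clusters the share of genes past 2-fold was 0.31% in C0, 0.36% in C1, 0.374% in C2, 0.0689% in C3, 0.258% in C5, 4.12% in C6, 0.255% in C7, 5.13% in C9, 0.475% in C10, 1.24% in C11 and 4.82% in C16.

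**Figure D3:**
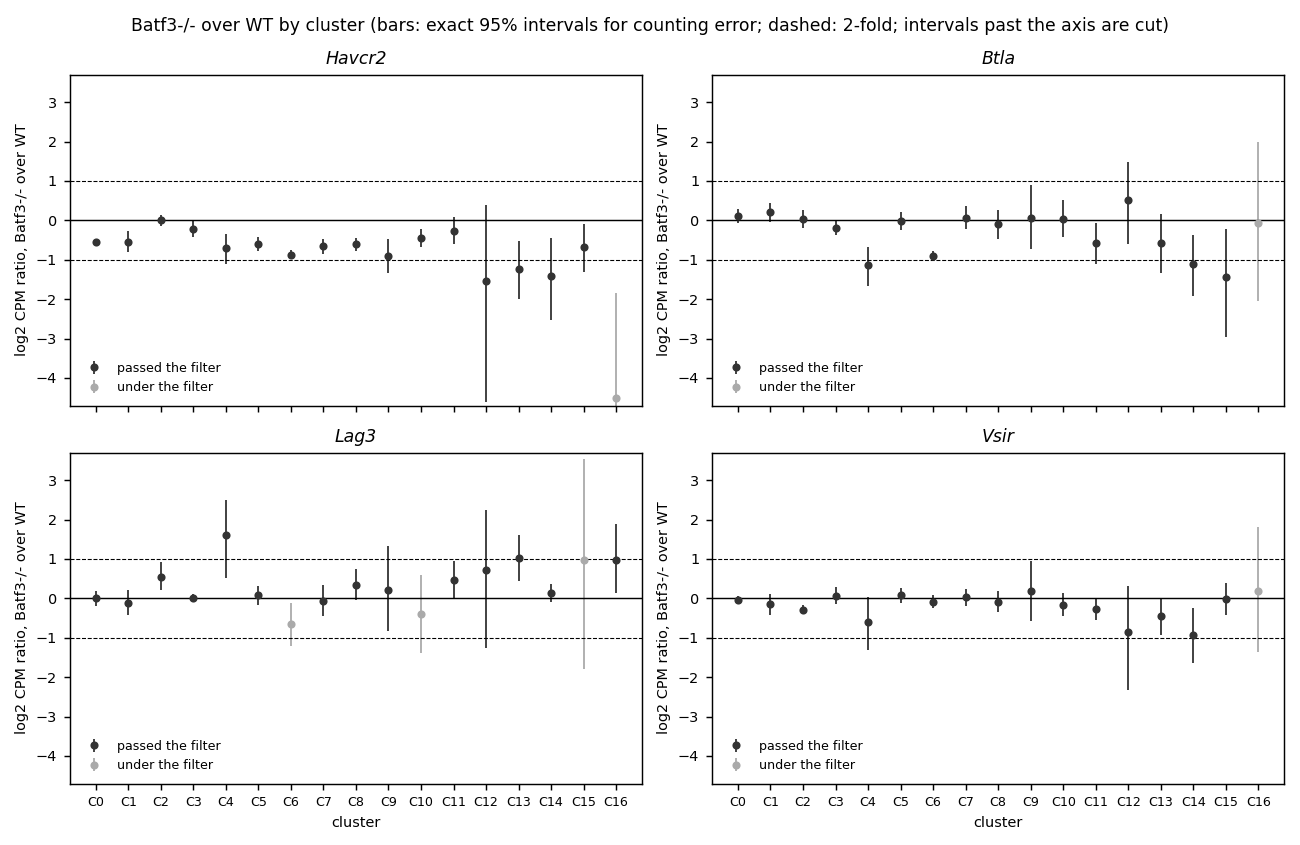
Log2 ratio of CPM, Batf3-/- over WT (vertical axes), of Havcr2, Btla, Lag3 and Vsir in clusters C0 to C16, with exact 95% intervals as bars, 2-fold as dashed lines and grey points under the filter. Havcr2 is below 0 in 16 of 17 clusters and at 0.00 in C2, while Lag3 in C3 is at 0.01.

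C6 was divided by the deposited cell cycle phase, since 13 of its 797 WT and 189 of its 727 Batf3-/- cells were in G1. In S or G2M cells Havcr2 was at 124 CPM (118 to 129.6) in WT and 58.3 CPM (53.8 to 63.0) in Batf3-/- (-1.09, -1.22 to -0.96), 1 of 4 members past 2-fold, where 4.09% of genes were. Btla was at 126 and 65.5 CPM (-0.94, -1.06 to -0.81). In G1 cells Havcr2 was at 105 CPM (64.7 to 159.8) and 105 CPM (93.4 to 118) (0.01, -0.63 to 0.73), with no member past 2-fold where 15.6% of genes were. Within Batf3-/- C6, Havcr2 in G1 thus lay above S or G2M, while the intervals of Btla, 72.2 CPM (62.4 to 83.2) and 65.5 CPM (60.8 to 70.5), overlapped.

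**Figure D4:**
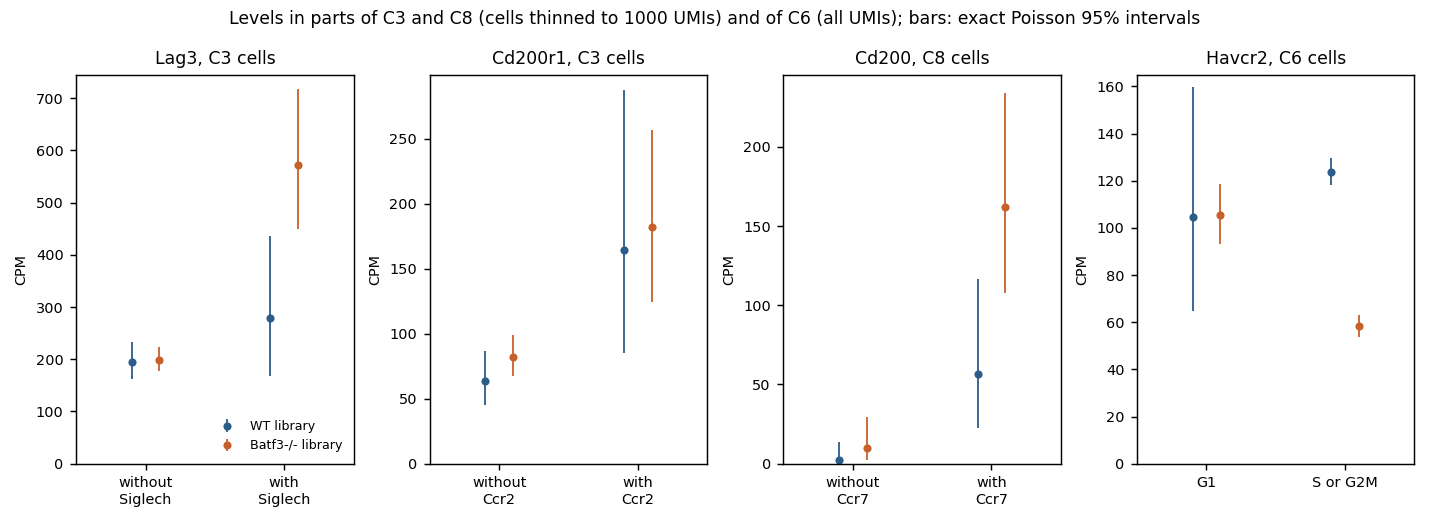
CPM (vertical axes) in the WT (blue) and Batf3-/- (orange) libraries, with exact Poisson 95% intervals as bars, of Lag3 in C3 by Siglech, Cd200r1 in C3 by Ccr2 and Cd200 in C8 by Ccr7, in cells thinned to 1000 UMIs, and of Havcr2 in C6 by phase. Lag3 in Batf3-/- C3 is at 573 CPM in cells with and 199 CPM in cells without a Siglech UMI.

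Of the other genes of these pathways in C6, 1 of 13 partners was higher in Batf3-/-, the phosphatase Ptpn6, which Btla can recruit, with 122 CPM in WT and 266 CPM in Batf3-/-. Of 12 other inhibitory genes 3 were higher and 1 lower, where 4.12% of all genes were past 2-fold. Clec4a2 was at 6.84 and 24.3 CPM, Cd300lf at 8.06 and 23.6 CPM and Sirpa at 10.7 and 24.2 CPM, while Cd86 was at 166 and 54.1 CPM. In pooled cDC2a none of 13 partners and 16 other inhibitory genes was past 2-fold, with medians of -0.06 and -0.03, against 0.01 over all genes tested.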

How the data were processed

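Droplet RNA libraries of sorted splenic cells, 1 per genotype, were analysed. Per the study's methods, the authors mapped reads to GRCm38 with Cell Ranger, evened the sequencing depth of the libraries when aggregating them, filtered and clustered cells in Seurat 3.0.5 and labelled them with SingleR. Evening depth discards reads of the deeper library. The deposited raw tables hold UMI counts per gene and cell, without normalization, and their sums equalled the deposited totals in 24343 of 24343 cells. The authors' normalized and antibody tables were not used. Cluster, label and phase of each cell are those deposited.

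CPM, their exact Poisson intervals, log2 ratios with exact binomial intervals and Clopper-Pearson shares were computed in Python 3.11.15 with numpy 2.4.6, scipy 1.17.1 and pandas 2.3.3, by code tested on simulated data. Thinning to 1000 UMIs left out 28 WT and 42 Batf3-/- cells. Scrublet in scanpy 1.11.5 marked doublets, which stayed in except in 1 alternative. Members and lists were chosen with earlier results of these data known. Named genes were the members, the 3 genes most like each and, per list, at most 4 past 2-fold by size. Clusters were built on the same transcripts, so differences between clusters are descriptions. Gene positions are from GENCODE M21.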

Additional observations from a re-analysis of the deposited data

Results flagged for a closer look

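For Havcr2 and Lgals9 the log2 ratio of mature over immature cells lay above 0 in one lineage and below 0 in another of the WT library, each time past the filter on low values and with an interval that did not include 0. The ratios of Btla, Vsir and Cd200r1 also had both signs, but those above 0 had intervals that included 0. Havcr2 was at -3.34 in cDC1 (C12 over C4) and 0.52 in cDC2a (C8 over C0). C8 is mixed: of its thinned WT cells 23.4% held a Ccr7 UMI, and those had Havcr2 at 64.5 CPM (27.9 to 127), against 130.1 CPM in thinned C0, while C8 cells without one were at 233 CPM (189 to 285). Thinned WT C8 cells without a Ccr7 UMI over thinned C0 gave 0.84 (0.51 to 1.17). This division was chosen after values had been seen, and the level with Ccr7 rests on 8 UMIs. A thinned cell without a Ccr7 UMI may still express Ccr7. The part of Ccr7 in the ratio was not tested. Lgals9 was at -0.72 in cDC2a and 0.59 in cDC2b (C11 over C2). The differences between lineages were not tested, since each rests on 1 library. In Batf3-/- the ratios were -4.16 (-7.24 to -2.25) and 0.46 (0.32 to 0.60) for Havcr2 and -1.05 (-1.59 to -0.54) and 0.12 (-0.38 to 0.59) for Lgals9.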

How the results depend on the processing

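No paired analysis was possible because each genotype is 1 library. Of 23 ratios of a member past 2-fold, thinning to 1000 UMIs gave a value for 19 and reversed 3: Btla in Batf3-/- C12 over C4 (0.58), and Batf3-/- over WT for Havcr2 in C14 (0.61) and Lilrb4a in C15 (0.89). Cells numbered 31 on each side for Btla, 154 WT and 101 Batf3-/- in C14, and 145 and 52 in C15. In C14 a thinned Havcr2 UMI was read in 1.30% of WT and 1.98% of Batf3-/- cells. At 1000 UMIs per cell these reversed values rest on few UMIs and say little about direction. The cause was not tested. Apart from Havcr2 in C13, whose sign turned in 2 of the 6 doublet runs described here (0.32 and 0.16), no other alternative reversed one. Within 2-fold in at least 1 alternative were also Btla in Batf3-/- C12 over C4 (-0.85 with median-of-ratios scaling), Btla in C15 (-0.94 among G1 cells, -0.75 by the mean of per-cell CPM), Havcr2 in C14 (-0.93) and Lilrb4a in C15 (-0.95), the latter pair without doublets. So was Lgals9 in Batf3-/- C8 over C0 (-0.92 without doublets, -0.97 among G1 cells, -0.93 with median-of-ratios scaling). In C13 so were Lag3 (0.89 without doublets, 0.98 with that scaling) and Havcr2 (-0.41 without doublets). Past 2-fold were 11 of 36 ratios of mature over immature clusters that passed the filter (19 of 48 with no filter on low values). For cycling over resting clusters it was 2 of 39 (7 of 40 thinned, 8 of 56 with no filter). Between genotypes it was 10 of 96 (4 of 58 thinned, 20 of 136 with no filter). Some missed only the filter when thinned, as Lag3 (1.95) and Havcr2 (-2.28) in C13. The share over all genes was not computed for these alternatives. All 23 stayed past 2-fold without barcodes found in both libraries, an alternative added after seeing the data. Doublet calls were unstable: over 6 runs of Scrublet (2 expected rates, 3 seeds each, added after seeing the data) it marked 1 to 606 WT and 0 to 1208 Batf3-/- cells. Without the 497 and 1208 cells of 1 run, 16 of 21 ratios stayed past 2-fold, and this alternative bears little weight. Havcr2 was lower in Batf3-/- in 14 of 15 clusters when thinned and in 12 of 12 compared among G1 cells, all from the same pair of libraries. C4, C5, C6, C7 and C10 had fewer than 30 G1 cells in a library and are not in that count, and in C6 the G1 ratio, from 13 WT cells, was 0.01. C12 had too few cells without doublets. The leading cluster by share of cells was the same in 7 of 16 cases with no thinning. Spearman's rho kept 8 of the 24 genes most like a member. Depth limits Lilrb4a, Lgals9 and the Batf3-/- values of C4 and C12.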
